A study of Mus musculus with 13 samples.

Results

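The 32 genes described here encode proteins of the tight junctions that seal the space between epithelial cells, or the nectins and E-cadherin, which hold neighbouring cells together. They are 18 claudins, the 3 MARVEL proteins Ocln, Marveld2 and Marveld3, the 3 cytoplasmic scaffold proteins Tjp1, Tjp3 and Cgn, the 3 junctional adhesion molecules F11r, Jam2 and Jam3, the cadherin Cdh1 and 4 nectins. They were taken by gene symbol from a list, which was chosen with earlier results of these data known. All 32 were found, each with 1 probe set, among 19505 genes measured. Expression was measured on 1-colour Affymetrix arrays in colon and ileum of female FVB mice, all bearing a mammary carcinoma from the same strain that expresses human HER2. Vancomycin-treated mice drank water with 200 mg/L vancomycin, a glycopeptide antibiotic against Gram-positive bacteria, from 4 weeks of age, and the mice without antibiotic did not. The mice were killed at 9 weeks, which the design text does not tie to age or to treatment time, at a tumour volume of 150 mm3. The 13 arrays were 3 of colon under vancomycin, 4 of colon without antibiotic, 3 of ileum under vancomycin and 3 of ileum without antibiotic. No mouse without a tumour was among them, and the labels name washed whole tissue without separating epithelium from the muscle and connective tissue beneath it. In such samples, fewer cells of a type and less RNA per cell cannot be told apart.

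Claudins are membrane proteins whose extracellular loops meet between neighbouring cells and set which ions may pass. Some of them, such as Cldn2 and Cldn15, form cation-selective pores, whereas others, such as Cldn4 and Cldn8, are mostly described as sealing. Occludin and the other MARVEL proteins share these strands, and the scaffold proteins tie the strands to the actin cytoskeleton. Nectins are immunoglobulin-like proteins that start cell contacts together with E-cadherin (Cdh1), and several of them are also ligands of receptors on T cells and natural killer cells. In the gut the claudin composition is known to vary along the intestine.

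Values are log2 values on the deposited RMA scale, on which a difference of 1 is nominally a doubling. Changes are differences of group means with their standard error (SE) from limma, fitted to all 13 arrays. The threshold was an adjusted p of 0.05, after Benjamini-Hochberg correction across the 19572 named probe sets. Whether each array stands for its own mouse is not stated, so a p-value covers the spread among arrays and that spread may be technical. With 3 or 4 arrays a group, precision is limited throughout. The tissue labels fitted their markers: a list of 6 ileal enterocyte genes averaged 7.40 to 8.90 in the colon arrays and 15.10 to 16.09 in the ileum arrays. Replicate 11 of the vancomycin ileum stood apart, with a mean correlation of 0.977 to its own group, against 0.987 and 0.983 for replicates 13 and 14. Its 8 epithelial markers averaged 15.49 (15.95 and 15.99 in replicates 13 and 14), and its 8 smooth muscle markers averaged 14.75 (13.80 and 13.32 in the same). Replicate 11 was not set apart by these lists alone. Its 7 B cell markers averaged 10.22 (7.83 and 7.51 in the same) and its 5 Paneth cell markers 14.60 (13.01 and 12.85). For Cldn4, Cldn5, Jam3, Nectin2 and Cd96 the vancomycin effect in the ileum is given with and without it. Some other ileal changes switched sign without it, among them Nectin3 (-0.27 to 0.13), Cldn10 (0.30 to -0.16) and Cldn2 (-0.25 to 0.08). None of these passed the threshold described above, with or without it.

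The promoters of 4 claudins are shown. Cldn2, Cldn15 and Cldn4 were lower in the colon, as described below. Cldn3 lies next to Cldn4 on chromosome 5 with 0 protein-coding genes between them. Cldn8 had the largest change between the tissues (3.39 without antibiotic), but no promoter was given for it. Each runs from 250 bases before to 50 bases after the start of the gene, taken from RefSeq on GRCm38.p6, and is printed 5′ to 3′ along the gene. Capitals mark matches, on either strand, to 5 motifs: TTTATG (Cdx factors), GTTAAT (an HNF1 half-site), GGGCGG (Sp1), CACCTG (an E-box of Snail and Zeb factors) and AACCNGTT (grainyhead-like factors).
Cldn2, chrX:139800558-139800857, plus strand: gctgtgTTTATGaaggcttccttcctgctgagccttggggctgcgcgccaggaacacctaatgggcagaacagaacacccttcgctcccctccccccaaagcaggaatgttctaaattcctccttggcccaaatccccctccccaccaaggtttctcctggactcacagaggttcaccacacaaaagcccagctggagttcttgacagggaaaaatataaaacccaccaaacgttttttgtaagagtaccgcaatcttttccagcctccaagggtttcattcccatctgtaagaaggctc
Cldn15, chr5:136967619-136967918, plus strand: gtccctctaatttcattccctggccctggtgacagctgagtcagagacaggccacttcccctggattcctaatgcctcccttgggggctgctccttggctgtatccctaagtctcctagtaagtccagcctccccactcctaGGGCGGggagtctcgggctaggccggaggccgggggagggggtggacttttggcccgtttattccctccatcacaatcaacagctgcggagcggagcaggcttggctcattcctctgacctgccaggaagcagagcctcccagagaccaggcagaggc
Cldn4, chr5:134946885-134947184, minus strand: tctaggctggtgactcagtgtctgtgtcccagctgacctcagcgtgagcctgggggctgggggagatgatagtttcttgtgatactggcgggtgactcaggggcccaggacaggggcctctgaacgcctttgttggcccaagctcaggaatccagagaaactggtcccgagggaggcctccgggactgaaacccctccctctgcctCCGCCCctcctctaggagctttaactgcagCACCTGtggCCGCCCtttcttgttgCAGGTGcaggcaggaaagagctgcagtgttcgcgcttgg
Cldn3, chr5:134985964-134986263, plus strand: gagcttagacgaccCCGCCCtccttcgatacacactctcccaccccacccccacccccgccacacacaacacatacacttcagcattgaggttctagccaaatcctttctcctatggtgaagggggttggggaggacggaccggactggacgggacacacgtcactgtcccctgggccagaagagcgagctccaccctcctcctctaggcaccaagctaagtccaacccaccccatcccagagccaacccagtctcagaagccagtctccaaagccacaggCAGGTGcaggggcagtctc
The Cldn2 promoter holds 1 Cdx match, whose first base is -244 relative to the start. The Cldn15 promoter holds 1 Sp1 match, the Cldn4 promoter 2 Sp1 and 2 E-box matches, and the Cldn3 promoter 1 of each. Matches on the opposite strand appear as CCGCCC for Sp1 and as CAGGTG for the E-box. For 24 of the 32 genes 35 promoters were given. Of these 35 promoters 2 held the Cdx letters, 5 the HNF1 half-site, 22 the Sp1 letters, 13 the E-box and 2 the grainyhead-like letters. Of 32851 mouse promoters of the same length, 11.9%, 7.1%, 35.7%, 20.2% and 2.09% held these in the same order. Promoters of the same gene can overlap, so the 35 are not independent. These matches describe the letters of the window and no binding was measured.

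Colon and ileum differed in the levels of several claudins and nectins. Without antibiotic, 9 of the 32 genes passed the threshold, 2 higher and 7 lower in the colon, where 20.5% of all named probe sets passed, 11% higher and 9.59% lower. Cldn8 was higher by more than 3 log2 units in the colon, whereas Cldn4, Cldn2, Cldn15, Cldn7, Nectin2, Nectin3 and Cgn were lower. Cldn5 was higher without overlap in the untreated colons, by 1.08 ± 0.36, but did not pass (limma adjusted p = 0.0508). Under vancomycin 8 passed, 2 higher and 6 lower, where 15.1% of all named probe sets passed, 7.45% higher and 7.67% lower. Both comparisons named 7 of these genes, 2 passed only without antibiotic, 1 only under vancomycin, and 22 in neither. The epithelial markers averaged 15.25 in the untreated colons and 15.89 in the untreated ilea, and the smooth muscle markers 14.58 and 13.20. The part of these markers in the calls was not tested. The median change of the 32 genes was near 0 in both comparisons, at 0.00 and -0.015, while their median absolute change was 0.354 without antibiotic and 0.300 under vancomycin, against 0.226 and 0.233 over all probe sets.

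**Figure D1:**
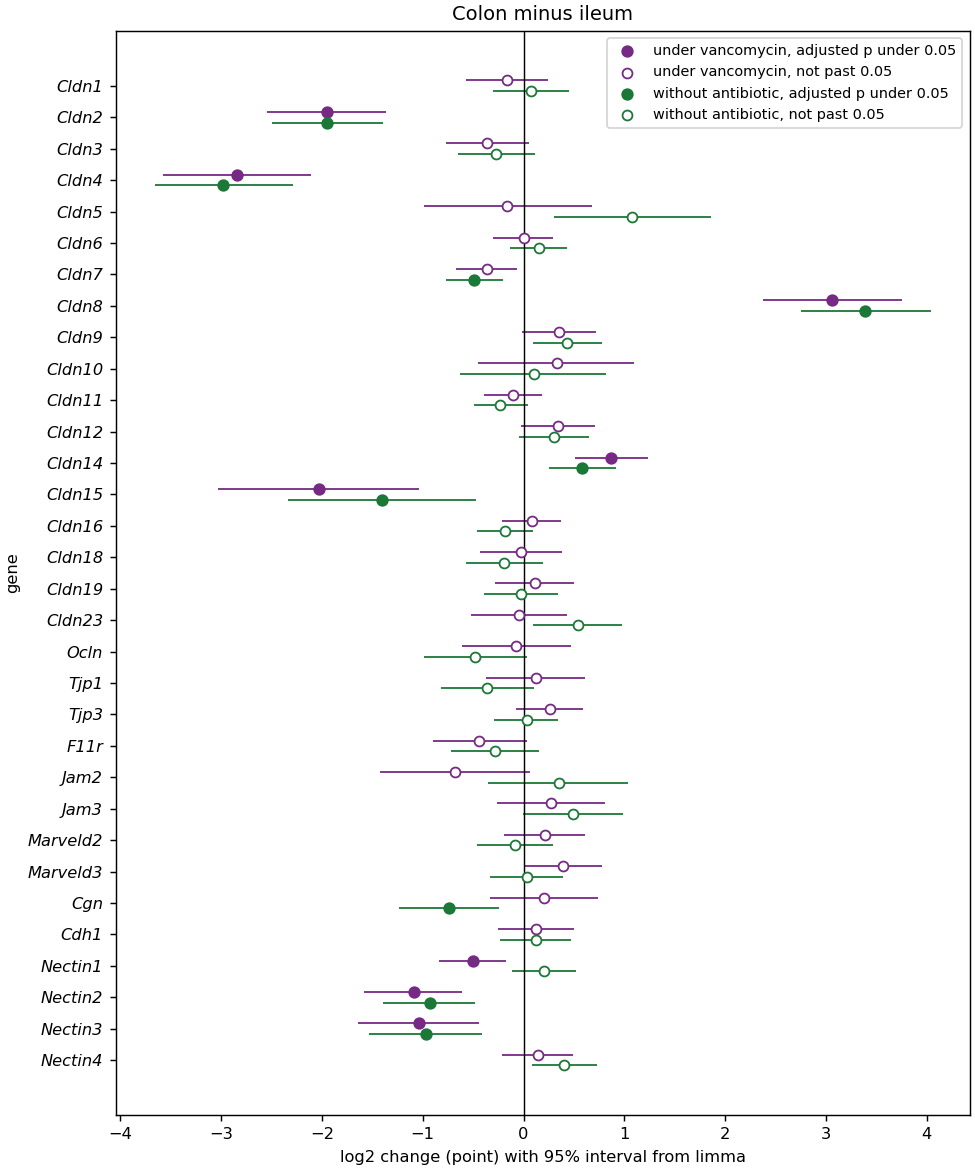
Log2 difference of colon minus ileum for each of the 32 genes, with its 95% interval from limma, under vancomycin (purple, upper of each pair) and without antibiotic (green, lower). Filled points passed an adjusted p of 0.05. Cldn8, at 3.06 and 3.39, lies farthest to the right and Cldn4, at -2.84 and -2.98, farthest to the left.

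Of the 4 channel-type claudins (Cldn2, Cldn10, Cldn15 and Cldn16), Cldn2 and Cldn15 were lower in the colon and the other pair did not pass. Cldn2, a pore for cations and water, read 7.81, 8.08, 7.39 and 8.23 in the colons without antibiotic (replicates 1, 2, 3 and 5), against 10.02, 9.52 and 9.93 in the ilea without antibiotic (replicates 1, 2 and 3). Under vancomycin it read 7.54, 7.80 and 7.53 in the colons (replicates 11, 13 and 14), against 8.92, 10.09 and 9.71 in the ilea (replicates 11, 13 and 14). No colon array reached an ileal one. The change was -1.95 ± 0.26 (SE, n = 4 and 3, limma adjusted p = 7.66e-05) without antibiotic and -1.95 ± 0.27 (n = 3 each, limma adjusted p = 0.00019) under vancomycin. Cldn15, a sodium pore that supports nutrient uptake in the small intestine, read 13.34, 11.19 and 12.53 in the vancomycin colons, against 14.10, 14.55 and 14.51 in the vancomycin ilea. Without antibiotic it read 13.65, 12.02, 13.06 and 13.48 in the colons, against 14.38, 14.70 and 14.29 in the ilea. The ilea lay close together and above every colon, and the colons were spread over more than 2 log2 units. The change was -2.03 ± 0.46 (limma adjusted p = 0.0075) under vancomycin and -1.40 ± 0.43 (limma adjusted p = 0.0331) without antibiotic. Without colon replicate 2, the lowest of the untreated colons, the change without antibiotic was -1.06 with a limma adjusted p of 0.0875. Its call was also lost without replicate 3 of the untreated colons or any of the 3 untreated ilea. The lowest colons for Cldn15 were replicate 13 under vancomycin and replicate 2 without antibiotic. In them the smooth muscle markers averaged 14 and 13.85, against 14.64 to 15 in the other 5 colons. The same arrays were also the lowest colons for the neuron and glia markers and for the tuft cell markers. Other lists ran otherwise: the endothelial markers were lowest in vancomycin colon 14 (7.60). The fibroblast markers averaged 11.02 in vancomycin colon 14, below untreated colon 2 (11.20). The part of these lists in the spread of Cldn15 was not tested.

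Among the 14 other claudins, Cldn8 and Cldn14 were higher in the colon, and Cldn4 and Cldn7 lower. Cldn8, described as a barrier to sodium leak in the distal colon and kidney, read 14.02, 14.25, 14.11 and 13.90 in the colons without antibiotic, against 11.04, 10.38 and 10.61 in the ilea. Under vancomycin it read 14.30, 14.37 and 13.37 in the colons, against 10.80, 11.70 and 10.35 in the ilea. The colons lay far above the ilea in both settings. The change was 3.39 ± 0.30 (limma adjusted p = 1.5e-06) without antibiotic and 3.06 ± 0.32 (limma adjusted p = 1.15e-05) under vancomycin. Cldn14, known from inherited deafness and from calcium handling in the kidney, was dim, with group means between 5.83 and 6.94. It was higher in the colon by 0.58 ± 0.16 (limma adjusted p = 0.016) without antibiotic and by 0.87 ± 0.17 (limma adjusted p = 0.00239) under vancomycin. The first of these was lost without ileum replicate 3, at 0.46 with an adjusted p of 0.101.

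Cldn4, a receptor of Clostridium perfringens enterotoxin, had the most negative change between the tissues of the 32 genes. It read 10.13, 10.65, 10.21 and 10.11 in the colons without antibiotic, against 12.95, 13.30 and 13.51 in the ilea. Under vancomycin it read 9.05, 9.04 and 8.86 in the colons, against 10.75, 12.23 and 12.50 in the ilea. Every ileal array lay above every colonic one, also across treatments. The change was -2.98 ± 0.32 (limma adjusted p = 1.06e-05) without antibiotic and -2.84 ± 0.34 (limma adjusted p = 4.53e-05) under vancomycin, or -3.38 without ileum replicate 11. Cldn3, its neighbour and also an enterotoxin receptor, did not pass: it averaged 14.04 ± 0.33 in the colons (SD, n = 4) and 14.31 ± 0.07 in the ilea (SD, n = 3) without antibiotic, a change of -0.27 with a limma adjusted p of 0.351. Cldn7, which also lines the lateral membrane, averaged 16.66 ± 0.11 in the colons and 17.15 ± 0.03 in the ilea without antibiotic, a change of -0.49 ± 0.13 (limma adjusted p = 0.0174). Its call was lost without ileum replicate 1 or 3, and under vancomycin its change of -0.36 did not pass (limma adjusted p = 0.112). Cldn7 and Cdh1 averaged over 16, which a 16-bit scanner cannot reach on a log2 scale, so their small changes hold on the deposited scale only.

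**Figure D2:**
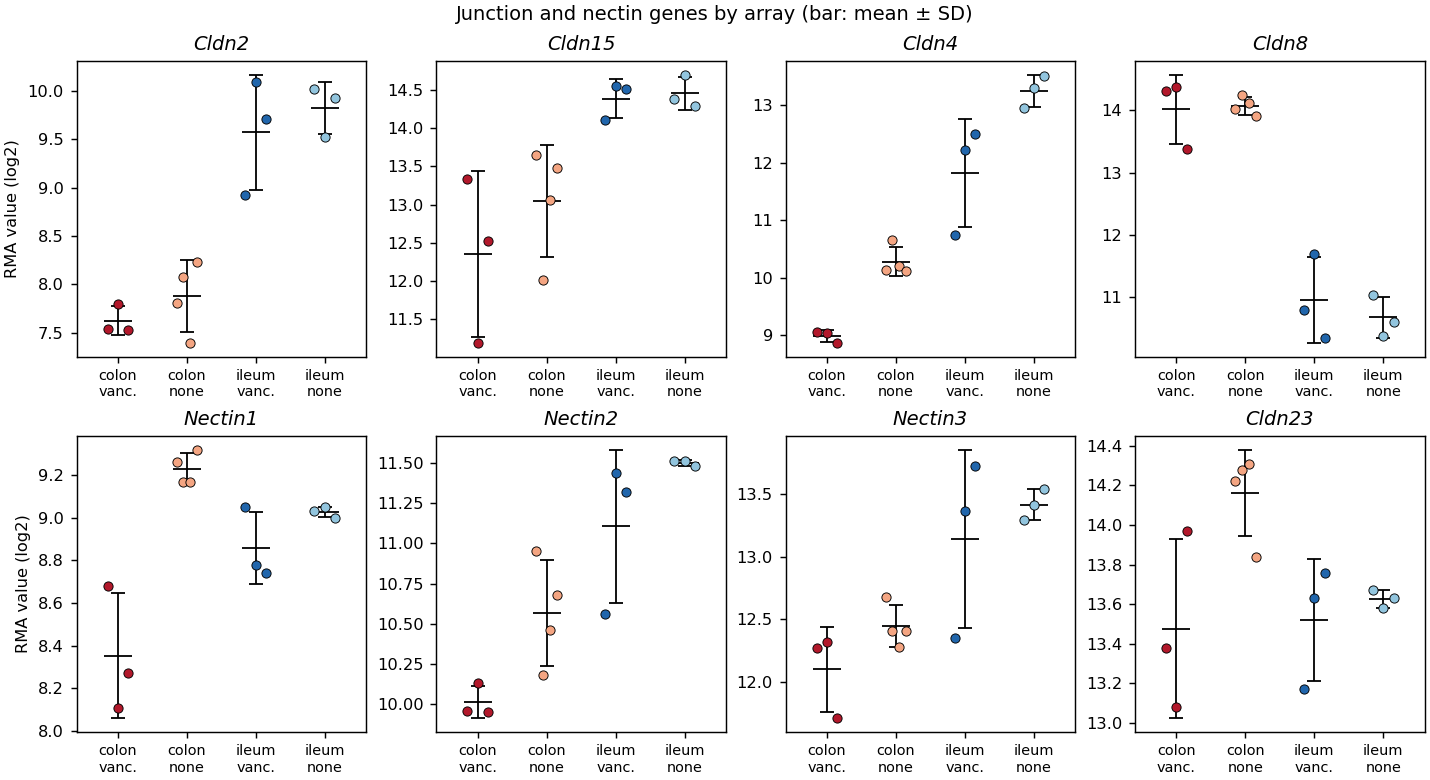
RMA log2 values of 8 genes in each array, in the order colon under vancomycin, colon without antibiotic, ileum under vancomycin and ileum without antibiotic. Points are arrays and bars are means with SD. Cldn8 is high in colon and Cldn2 and Cldn4 in ileum, and the vancomycin arrays of Cldn4 lie below the untreated ones in each tissue.

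Most of the remaining strand, scaffold and adhesion proteins did not pass between the tissues. Ocln, Marveld2, Marveld3, Tjp1, Tjp3, F11r, Jam2, Jam3 and Cdh1 did not pass in either comparison. Of these, Ocln and F11r were lower without overlap in the untreated colons. Untreated colons and ilea did not overlap for 15 of the 32 genes and for 6297 of all 19572 named probe sets. The scaffold protein Cgn read 8.42, 8.89, 9.36 and 8.91 in the colons without antibiotic, against 9.34, 9.74 and 9.82 in the ilea, and the groups overlapped. Its change of -0.74 ± 0.23 passed (limma adjusted p = 0.0362), but was lost without any of colon replicates 1, 2 and 5 or ileum replicates 2 and 3. Under vancomycin Cgn had a change of 0.20 that did not pass (limma adjusted p = 0.667).

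Nectin2 and Nectin3 were lower in the colon in both settings. Nectin2, a ligand of the lymphocyte receptor CD226, read 10.95, 10.18, 10.46 and 10.68 in the colons without antibiotic, against 11.51, 11.51 and 11.48 in the ilea. Under vancomycin it read 9.96, 10.13 and 9.95 in the colons, against 10.56, 11.44 and 11.32 in the ilea. The groups did not overlap in either setting. The change was -0.93 ± 0.21 (limma adjusted p = 0.00542) and -1.09 ± 0.23 (limma adjusted p = 0.0038). Nectin3, which binds nectin-1 and nectin-2 across the contact, averaged 12.44 ± 0.17 in the colons and 13.41 ± 0.13 in the ilea without antibiotic, and 12.10 ± 0.34 and 13.14 ± 0.71 under vancomycin. Its changes of -0.97 ± 0.26 and -1.04 ± 0.28 passed, with limma adjusted p-values of 0.0161 and 0.0199. The first was lost without untreated ileum 2 or 3 (-0.90 without the last, limma adjusted p = 0.0699), and the second without vancomycin colon 14 or vancomycin ileum 13 or 14 (-0.75 without the last, limma adjusted p = 0.096). The second call was also lost in a fit of the vancomycin arrays alone (limma adjusted p = 0.125) and with the title number as a fixed replicate block (-1.04 ± 0.31, limma adjusted p = 0.0538). Nectin1 passed under vancomycin alone, at -0.50 ± 0.16 (limma adjusted p = 0.042), against 0.20 with an adjusted p of 0.397 without antibiotic. Its call was lost without vancomycin colon 13 or 14 or any vancomycin ileum, and in a fit of the vancomycin arrays alone (limma adjusted p = 0.18). That pair of differences did not itself differ past the threshold, at -0.71 ± 0.21 (limma adjusted p = 0.331).

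Vancomycin moved none of the 32 genes past the threshold in the colon or in the ileum, and the lower reading of Cldn4 was the largest change among them in each tissue. In the colon 0 of 32 passed by limma, where 0.0102% of all named probe sets did, and 7 had an unadjusted p under 0.05, where 15.9% of all did. In the ileum 0 of 32 passed, where 0.536% of all did, and 4 had an unadjusted p under 0.05, where 10.1% of all did. The median change of the 32 was -0.045 in the colon, against 0.020 over all probe sets, and -0.088 in the ileum, against 0.023. Without replicate 11 of the vancomycin ileum the ileal median of the 32 was 0.068. The vancomycin and untreated arrays did not overlap for 4 of the 32 genes in the colon, where 12.3% of all probe sets did not, and for 8 in the ileum, where 16.9% did not. Cldn4 and Nectin2 were the 2 genes lower without overlap in both tissues, which held for 1.11% of all probe sets, and 0 genes were higher without overlap in both, which held for 0.904% of all.

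**Figure D3:**
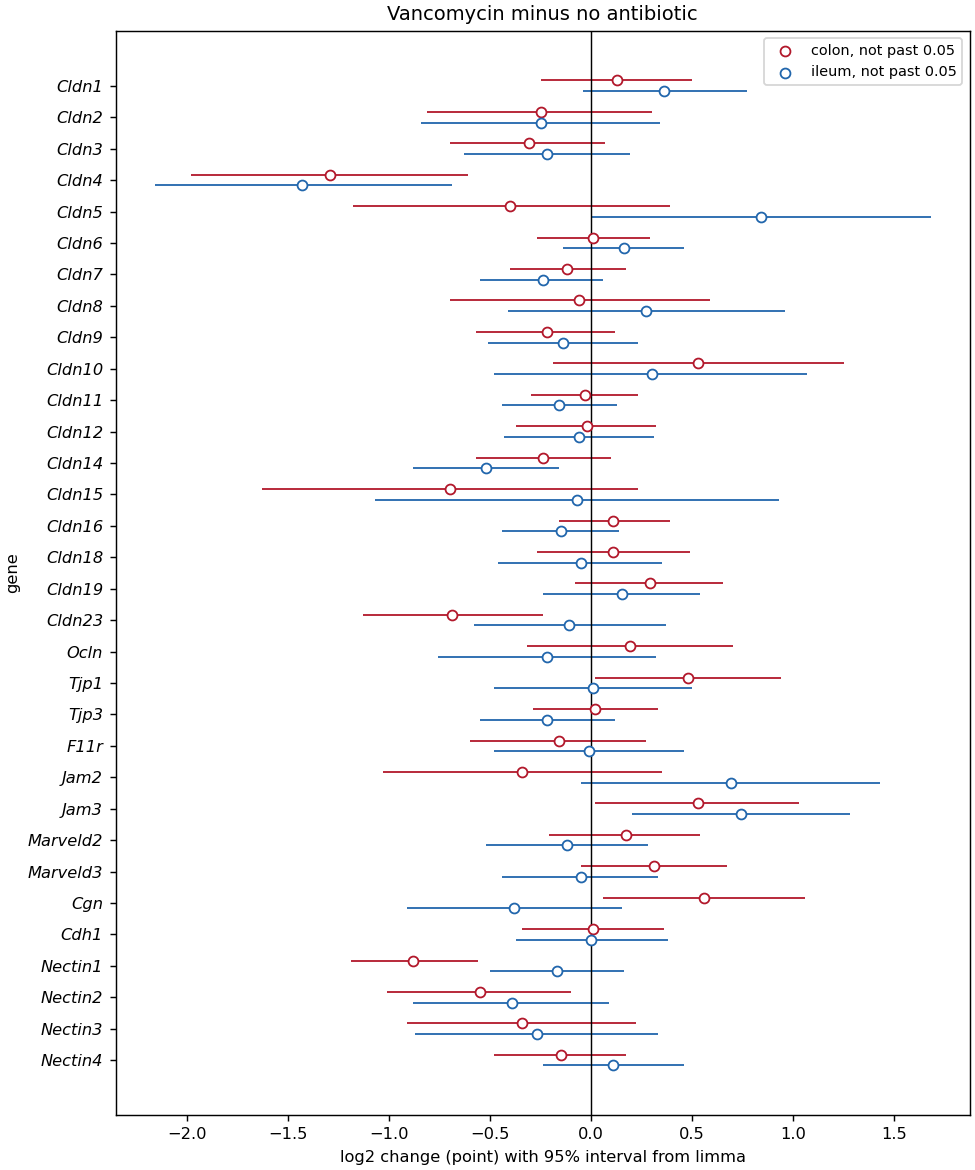
Log2 difference of vancomycin minus no antibiotic for each of the 32 genes, with its 95% interval from limma, in colon (red, upper of each pair) and ileum (blue, lower). All points are open because 0 genes passed an adjusted p of 0.05. Cldn4 lies farthest to the left in both tissues, at -1.29 in colon and -1.43 in ileum.

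Cldn4 read 9.05, 9.04 and 8.86 in the vancomycin colons, against 10.13, 10.65, 10.21 and 10.11 in the untreated colons. The change of -1.29 ± 0.32 had a 95% interval of -1.98 to -0.61 and did not pass (limma adjusted p = 0.124). In the ileum it read 10.75, 12.23 and 12.50 under vancomycin, against 12.95, 13.30 and 13.51 without antibiotic. Here the change was -1.43 ± 0.34, with an interval of -2.16 to -0.69 (limma adjusted p = 0.0997). All 6 vancomycin arrays lay below every untreated array of their tissue. The size of the ileal change depended on replicate 11. Without that array it was -0.89 (limma adjusted p = 0.0667), and without replicate 14 it was -1.76 and passed (limma adjusted p = 0.0367). When arrays were weighted by their quality in limma, it was -1.09 and passed (limma adjusted p = 0.00872). The weights of vancomycin ilea 11, 13 and 14 were 0.302, 3.79 and 0.644, so that estimate rests mostly on replicate 13. With these weights 5.17% of all named probe sets passed in the ileum, against 0.536% in the main fit.

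Nectin1, a nectin that also serves as an entry receptor for herpes simplex virus, had the smallest p of the 32 genes in the colon. It read 8.68, 8.11 and 8.27 in the vancomycin colons, against 9.26, 9.17, 9.17 and 9.32 in the untreated colons. The groups did not overlap, and the change of -0.88 ± 0.15 had a 95% interval of -1.19 to -0.56 (limma adjusted p = 0.0968). It passed without replicate 3 of the untreated colons (-0.90, limma adjusted p = 0.0423), without replicate 11 of the vancomycin colons (-1.04, limma adjusted p = 0.0178) and with array weights (-0.90, limma adjusted p = 0.0423). In the ileum it averaged 8.86 ± 0.17 under vancomycin and 9.03 ± 0.03 without antibiotic (SD, n = 3 each). Nectin2 read 9.96, 10.13 and 9.95 in the vancomycin colons, against 10.95, 10.18, 10.46 and 10.68 in the untreated colons, and its change of -0.55 ± 0.21 did not pass (limma adjusted p = 0.233). In the ileum it read 10.56, 11.44 and 11.32 under vancomycin, against 11.51, 11.51 and 11.48 without antibiotic, a change of -0.39 (limma adjusted p = 0.579), or -0.12 without replicate 11. The 4 nectins all had negative changes in the colon, with a median of -0.45, and none passed.

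The remaining genes with an unadjusted p under 0.05 in the colon were Cldn23, Cgn, Tjp1 and Jam3, and for each the groups overlapped. Cldn23, a claudin of the surface epithelium, read 13.38, 13.08 and 13.97 under vancomycin, against 14.22, 14.28, 14.31 and 13.84 without antibiotic, a change of -0.69 ± 0.21 (limma adjusted p = 0.171). Cgn, which links the strands to the actin cytoskeleton, read 9.22, 9.51 and 9.64 under vancomycin, against 8.42, 8.89, 9.36 and 8.91 without antibiotic, a change of 0.56 ± 0.23 (limma adjusted p = 0.262). Tjp1, the main scaffold protein of the junction, read 10.50, 10.87 and 10.87 under vancomycin, against 9.93, 10.11, 10.52 and 10.49 without antibiotic, a change of 0.48 ± 0.21 (limma adjusted p = 0.293). These genes therefore pointed in both directions. Marveld3, a MARVEL protein, was higher without overlap in the colon, at 8.89, 9.08 and 9.24 under vancomycin, against 8.48, 8.84, 8.84 and 8.87 without antibiotic. Its change of 0.31 did not pass (limma adjusted p = 0.372).

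In the ileum the other genes with an unadjusted p under 0.05 were Cldn14, Jam3 and Cldn5. Cldn14 read 5.89, 5.80 and 5.80 under vancomycin, against 6.56, 6.40 and 6.10 without antibiotic, a change of -0.52 ± 0.17 (limma adjusted p = 0.275), and it passed with array weights (-0.55, limma adjusted p = 0.0347). Jam3, a junctional adhesion molecule also carried by endothelium and mesenchymal cells, read 9.05, 8.44 and 8.72 under vancomycin, against 8.15, 8.03 and 7.81 without antibiotic. Its change was 0.74 ± 0.25 (limma adjusted p = 0.315), or 0.58 without replicate 11. In the colon Jam3 read 9.33, 9.02 and 8.68 under vancomycin, against 8.65, 7.84, 8.84 and 8.61 without antibiotic, a change of 0.53 ± 0.23 (limma adjusted p = 0.297). In both tissues the vancomycin mean was the higher one, and neither change passed. Cldn5, the main claudin of endothelium, read 8.20, 6.72 and 6.72 in the vancomycin ilea, against 6.29, 6.30 and 6.53 in the untreated ilea. The first of these arrays stood far above the other two, and the change of 0.84 ± 0.39 (limma adjusted p = 0.492) was 0.35 without it.

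**Figure D4:**
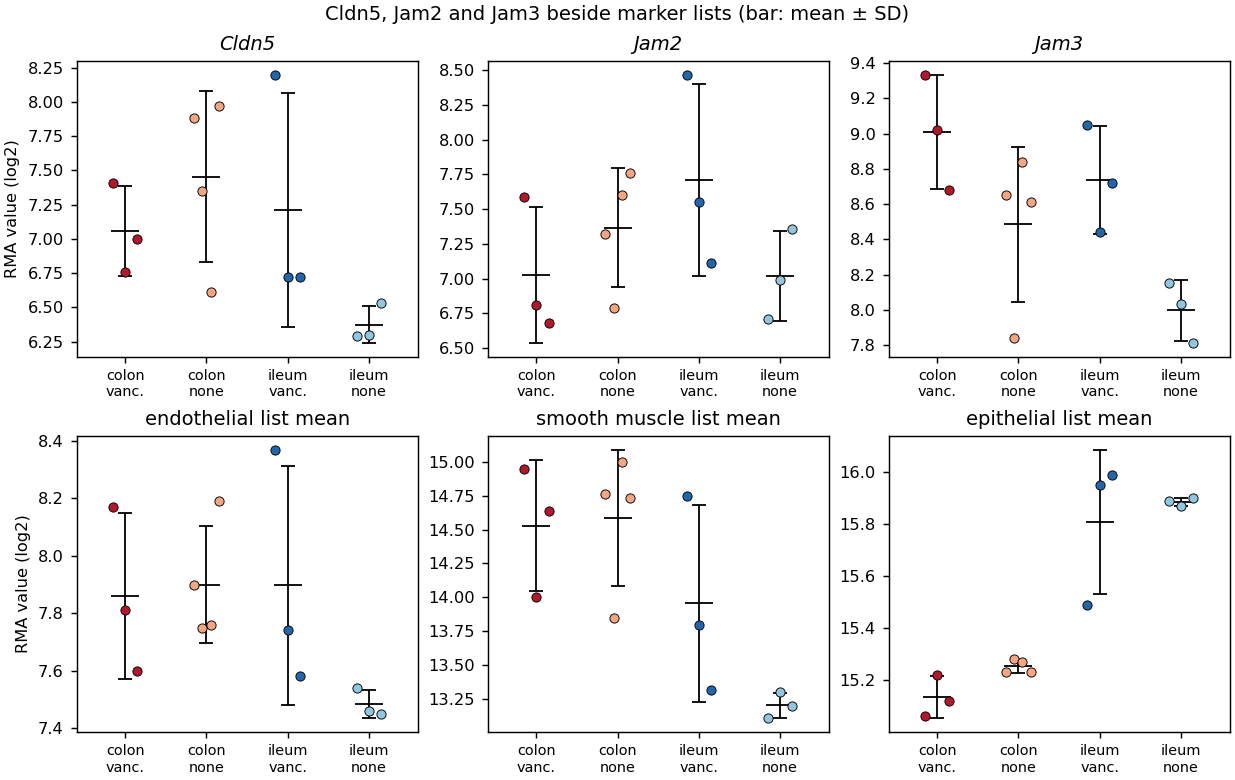
RMA log2 values of Cldn5, Jam2 and Jam3 (upper row) and the means of the endothelial, smooth muscle and epithelial marker lists (lower row) in each array, with mean and SD bars, for colon and ileum under vancomycin or without antibiotic. The highest vancomycin ileum for Cldn5 (8.20) and Jam2 (8.47) is replicate 11, which is also highest for endothelial (8.37) and smooth muscle (14.75) markers and lowest for epithelial ones (15.49).

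Cldn5 and Jam2, both known from endothelium, were highest in the vancomycin ileum with the highest stromal markers. The 9 endothelial markers averaged 8.37, 7.74 and 7.58 in vancomycin ilea 11, 13 and 14, against 7.45 to 7.54 in the untreated ilea, and the 8 smooth muscle markers averaged 14.75, 13.80 and 13.32, against 13.11 to 13.30. All 9 endothelial and all 8 smooth muscle markers had a positive change in the ileum, and none passed the threshold. Jam2 read 8.47, 7.55 and 7.11 in the same vancomycin ilea, against 6.71, 6.99 and 7.36 in the untreated ilea. In the colon it read 7.59, 6.81 and 6.68 under vancomycin, against 7.32, 6.79, 7.60 and 7.76 without antibiotic. Vancomycin ileum 11 was also the highest vancomycin ileum for the fibroblast, B cell and Paneth cell markers. The part of all these lists in the Cldn5 and Jam2 values was not tested. The epithelial markers averaged 15.06 to 15.22 in the vancomycin colons, below every untreated colon, at 15.23 to 15.28. In vancomycin ilea 11, 13 and 14, Cldn4 read 10.75, 12.23 and 12.50. The epithelial markers averaged 15.49, 15.95 and 15.99 in these arrays, against 15.87 to 15.90 in the untreated ilea. The goblet cell markers, a list of 6, averaged 14.91 to 15.92 in the vancomycin colons and 16.22 to 16.64 in the untreated colons. The 5 enteroendocrine markers averaged 9.85 to 10.95 in the vancomycin colons and 10.87 to 11.51 in the untreated colons. The 6 plasma cell markers averaged 9.67 to 10.34 in the vancomycin colons and 10.47 to 10.81 in the untreated colons, and 10.25 to 10.67 in the vancomycin ilea and 11.14 to 11.39 in the untreated ilea. The part of these lists in the lower Cldn4, Nectin1, Nectin2 and Cldn23 readings was not tested.

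The vancomycin effect differed between the tissues past the threshold for 0 of the 32 genes, where 0.189% of all named probe sets passed, and 4 had an unadjusted p under 0.05, where 8.01% of all did. For Nectin1 the colonic effect minus the ileal one was -0.71 ± 0.21 (limma adjusted p = 0.331). For Cgn it was 0.94 ± 0.34 (limma adjusted p = 0.471), since Cgn averaged 9.25 ± 0.42 in the vancomycin ilea and 9.63 ± 0.26 in the untreated ilea. For Cldn5 it was -1.24 ± 0.53 (limma adjusted p = 0.58) and for Jam2 -1.03 ± 0.47 (limma adjusted p = 0.614), or -0.74 and -0.65 without ileum replicate 11. A comparison chosen after the data were seen took the mean of the vancomycin effects in both tissues. In it 2 of the 32 genes passed, both lower, where 0.674% of all probe sets passed in either direction and 0.526% were lower. Cldn4 fell by 1.36 ± 0.23 on the log2 scale (limma adjusted p = 0.0221), and Nectin1 by 0.52 ± 0.11 (limma adjusted p = 0.046). The Cldn4 call was lost without vancomycin colon 14 (adjusted p = 0.0622 by limma), untreated ileum 2 (0.0526) or untreated ileum 3 (0.086), and the Nectin1 call was lost in 12 of 19 alternatives.

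**Figure D5:**
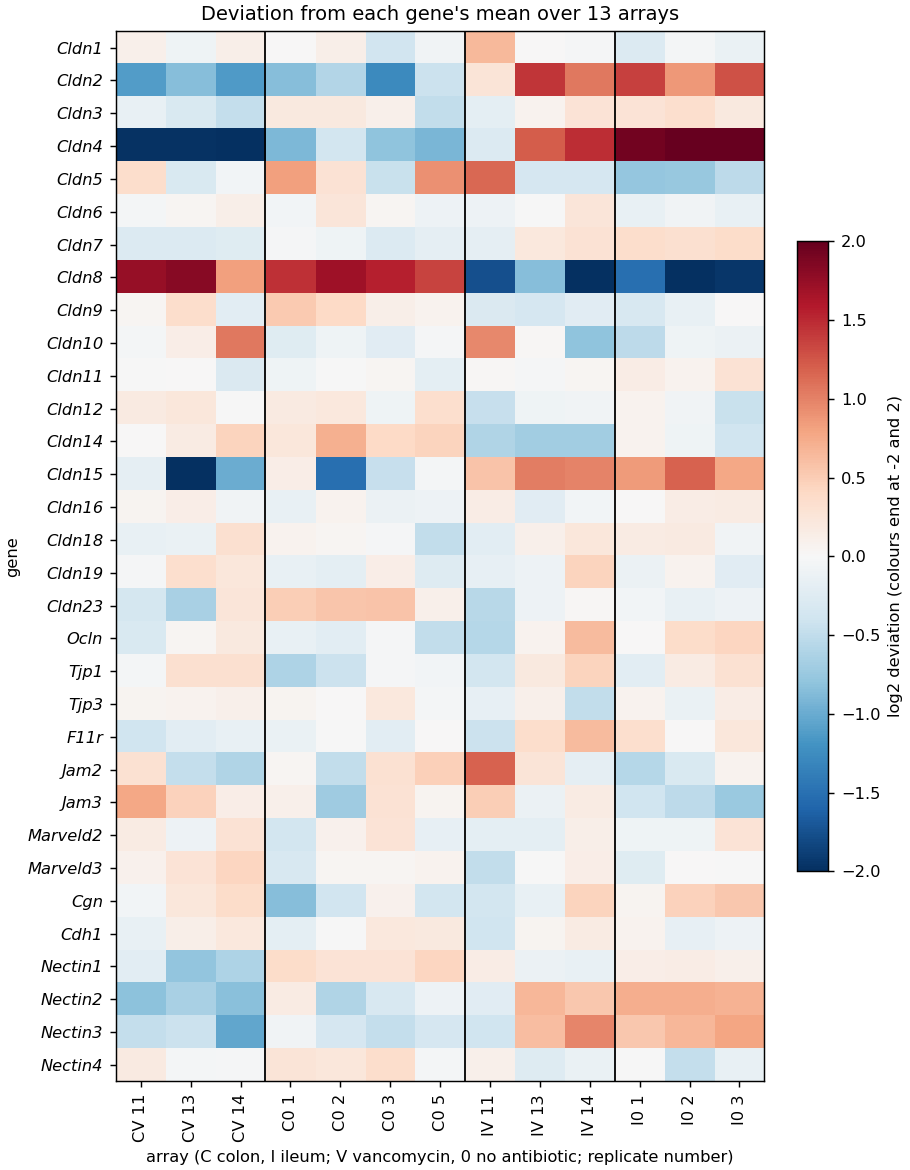
Deviation of each array from the gene's mean over the 13 arrays, on the log2 scale, for the 32 genes (rows). Columns are arrays labelled C for colon, I for ileum, V for vancomycin and 0 for no antibiotic, with the replicate number, and colours end at -2 and 2. Cldn2, Cldn4, Cldn8 and Cldn15 carry the tissue contrast, and Cldn4 is palest in ileum V 11.

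The spread between arrays was not the same in each group. The median SD of the 32 genes was 0.308 in the vancomycin ilea and 0.156 in the untreated ilea, beside 0.229 and 0.154 over all probe sets. Without replicate 11 the first of these was 0.134, beside 0.141 over all. In the colon it was 0.196 under vancomycin and 0.197 without antibiotic, beside 0.208 and 0.218. Cldn4 had the highest SD of the 32 in the vancomycin ilea, 0.94 (0.19 without replicate 11), and Cldn15 in the colons, 1.09 under vancomycin and 0.73 without antibiotic. Of the 32 genes, 10 had a mean over all arrays in the lowest 33.3% of named probe sets, below 6.79. They were Cldn1, Cldn6, Cldn9, Cldn10, Cldn11, Cldn14, Cldn16, Cldn18, Cldn19 and Nectin4, several of which are best known from kidney, inner ear, stomach, testis or myelin. Of these, Cldn14 alone passed in a comparison of colon with ileum. Besides Cldn3 and Cldn4, the gene pairs Ocln and Marveld2, Cldn1 and Cldn16, and Cldn6 and Cldn9 lie with 0 protein-coding genes between them in the RefSeq order, and none of these 6 genes passed in any comparison.

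Other junction genes, counted from lists by function, are read against the shares over all named probe sets, 20.5% called between the tissues without antibiotic and 15.1% under vancomycin. Of 29 other tight junction genes 3 were higher and 3 lower in the colon without antibiotic, a share near that of all probe sets, and 3 were higher and 3 lower under vancomycin. The tricellular junction proteins moved in opposite directions: Ildr1 averaged 12.70 ± 0.14 in the colons and 8.75 ± 0.49 in the ilea, a change of 3.95 ± 0.20 (limma adjusted p = 4.57e-09), while Lsr averaged 11.78 ± 0.53 and 13.56 ± 0.12, a change of -1.77 ± 0.27 (limma adjusted p = 0.000242). Both recruit Marveld2, which did not separate the tissues. Cgnl1, a relative of Cgn, was higher in the colon by 1.5 ± 0.19 (limma adjusted p = 6.42e-05), and the polarity kinase Prkci by 0.97 ± 0.19 (limma adjusted p = 0.00229). Of 10 adherens junction genes 0 were higher and 4 lower without antibiotic, namely Cdh17, Ctnnd1, Ctnna1 and Jup, with changes between -0.72 and -0.52. Cdh17 averaged 16.45 in the untreated colons and 16.97 in the untreated ilea. As for Cldn7 and Cdh1, these means are over 16, so its change holds on the deposited scale only. Under vancomycin 2 were higher, Ssx2ip (1.20) and Afdn (0.69), and 0 lower, both named after their values were seen. Of 9 desmosome genes 0 were higher and 3 lower without antibiotic, namely Pkp3 (-1.23), Pkp2 (-0.73) and Dsc2 (-0.82), and under vancomycin 1 was higher and 2 lower. The 8 epithelial markers averaged 15.25 in the untreated colons and 15.89 in the untreated ilea, with 7 of 8 changes negative and 3 called lower. Cdh17 is among these 3, so it counts in both lists. The 8 smooth muscle markers averaged 14.58 in the untreated colons and 13.20 in the untreated ilea, with 7 of 8 called higher. The part of these lists in the junction values was not tested. The calls of Ctnnd1, Ctnna1, Jup, Pkp2 and Dsc2 were lost without untreated ileum 3, and some of them also without other untreated arrays.

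Of 8 nectin receptors and nectin-like genes, 0 were higher and 4 lower in the colon without antibiotic: the lymphocyte receptors Cd96, Cd226 and Tigit and their ligand Pvr. The Tigit call was lost without untreated ileum 1 or 3, and the Pvr call without untreated colon 1 or any untreated ileum. Cd96 changed by -2.66 ± 0.17 (limma adjusted p = 5.04e-08) and Cd226 by -2.59 ± 0.22 (limma adjusted p = 1.05e-06). The 5 T cell markers averaged 7.47 to 8.17 in these colons and 9.88 to 10.33 in these ilea, and their part in the receptor values was not tested. Of 7 claudin partners and membrane proteases, 2 were higher, Prss8 (1.73) and Hpn (0.95), and 0 lower, and the Hpn call was lost without untreated colon 1 or 2 or untreated ileum 2 or 3. Of 10 epithelial transcription factors, 3 were higher, Grhl2 (1.36), Ehf (1.17) and Cdx1 (0.87), and 2 lower, Ovol1 (-1.17) and Hnf4a (-1.04).

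Under vancomycin, 2 genes of these lists fell in the ileum by limma and 0 in the colon, where 0 to 4 genes per list had an unadjusted p under 0.05. Over all named probe sets 0.536% were called in the ileum and 0.0102% in the colon, and 15.9% had an unadjusted p under 0.05 in the colon. Cd96 read 9.20, 8.41 and 8.89 in the vancomycin ilea, against 10.06, 10.08 and 10.02 in the untreated ilea. It fell by 1.22 ± 0.18 (limma adjusted p = 0.00506), and by 1.4 without replicate 11 (limma adjusted p = 0.000958). The colons read 7.54, 7.43 and 7.69 under vancomycin, against 7.29, 7.49, 7.26 and 7.52 without antibiotic. The effect in colon minus that in ileum was 1.38 ± 0.24 (limma adjusted p = 0.0409), and that call was lost in 13 of 20 alternatives, among them the loss of any array but vancomycin ileum 11 (1.31 without vancomycin colon 14, limma adjusted p = 0.146). The T cell markers averaged 8.76 to 10.03 in the vancomycin ilea, against 9.88 to 10.33 in the untreated ilea, and their part in the fall of Cd96 was not tested. Elf3, an epithelial transcription factor, read 10.89, 10.60 and 10.67 in the vancomycin ilea, against 11.72, 11.65 and 12.04 in the untreated ilea, and fell by 1.08 ± 0.21 (limma adjusted p = 0.0358). Its call was lost in 6 of 13 alternatives, namely a fit of the ileum alone and the loss of any ileal array but vancomycin replicate 11 (-1.02 without vancomycin replicate 13, limma adjusted p = 0.127).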

How the data were processed

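The authors deposited a log2 value for each probe set on each array. Per the submitters' processing notes, the tools were Affymetrix Expression Console 1.4.1.46 and RMA. RMA corrects background, quantile-normalizes arrays and summarizes probes, so changes common to all genes are not visible. The platform annotation gave 19572 probe sets exactly 1 gene symbol, which stand for 19505 genes. For a gene with several, the probe set with the highest mean was used. Levels are not compared between genes, since probe sets differ in brightness. All 13 arrays were fitted with group means in limma 3.58.1 (R 4.3.3), with contrasts, eBayes and Benjamini-Hochberg adjustment over 19572 probe sets. Tables were made in Python 3.11.15. The steps were tested on simulated data.

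The 32 genes and all lists were chosen with earlier results of these data known. Named in full are members with an unadjusted p under 0.05 in a vancomycin comparison or an adjusted p under 0.05 in a tissue comparison; listed genes are named when they passed a vancomycin comparison or the difference between tissues, or, up to 4 per list by p, without antibiotic between tissues. Hnf4a, ranked lower in its list, was named after its value was seen. Listed symbols without a match are not analysed here. The alternatives were array weights, a trended robust prior, a filter on dim probe sets, median-shifted arrays, averaged probe sets, fits of 1 tissue or treatment, a replicate block, and leaving out each array. Under vancomycin, same-numbered colon and ileum arrays deviated together from their group means (correlations 0.236, 0.176 and 0.107). The labels do not say that equal numbers are the same mouse, so the replicate block is an alternative and not the main fit. The named calls that it changed are given in the last section. No column of the table was left unused. Cage, batch and date are not given in the sources used here.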

Additional observations from a re-analysis of the deposited data

Results flagged for a closer look

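In 3 of 32 sets of 4 untreated colon arrays, 1 array lay farther from its nearest neighbour, relative to the range, than Dixon's 95% critical value of 0.829. Chance alone gives about 1 in 20 such sets. Cldn3 read 13.55 in replicate 5, against 14.14 to 14.24 in the others (ratio 0.855). Cldn18, a stomach and lung claudin that was dim here, read 4.88 in replicate 5 (ratio 0.839). Marveld3 read 8.48 in replicate 1, against 8.84 to 8.87 in the others (ratio 0.923).

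For Cldn5 every vancomycin ileum lay above the untreated ileal mean and every vancomycin colon lay below the untreated colonic mean. The effect in colon minus that in ileum was -1.24 and did not pass (limma adjusted p = 0.58). For Cd96, a T cell and natural killer cell receptor of the nectin-receptor list, the same difference was 1.38 and passed (limma adjusted p = 0.0409).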

How the results depend on the processing

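The number of genes past the threshold in the ileum under vancomycin was 0, but 2 with array weights, under which 5.17% of all probe sets passed, and 0 to 1 on leaving out single arrays. In the colon it was 0, but 1 with array weights (0.194% of all) and 0 to 1 on leaving out single arrays. For the difference between tissues it was 0 under every alternative run. For colon against ileum without antibiotic it was 9, but 14 with array weights (27.7% of all) and 4 to 9 on leaving out single arrays, with 4 when untreated ileum replicate 3 was left out (14.9% of all). Under vancomycin it was 8, and 6 to 9 on leaving out single arrays. For the mean of both vancomycin effects, chosen after seeing the data, it was 2, but 4 with array weights (6.31% of all), 1 with the trended robust prior (0.685%), 1 with the random replicate block (0.368%) and 0 to 2 on leaving out single arrays. The causes of these moves were not tested.

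With the title number as a replicate block, colon against ileum without antibiotic gave 10 genes as a random effect (correlation 0.0975) and 7 as a fixed effect, and under vancomycin 8 in both. The fixed block ended the calls of Cldn7 (adjusted p = 0.0648 by limma), Cldn14 (0.0539), Cldn15 (0.0507) and Nectin3 (0.0632) without antibiotic and, among the member calls named, that of Nectin3 alone under vancomycin. It also ended the call of Cd96 for the difference of the vancomycin effect between tissues (limma adjusted p = 0.0835). The random block ended the Nectin1 call in the mean of both vancomycin effects (limma adjusted p = 0.0638). Without antibiotic, same-numbered colon and ileum arrays correlated in their deviations from group means at 0.075, 0.03 and -0.016. Not every array correlated best with the array of its own number. These values cannot decide whether equal numbers are the same mouse. Over 63 single-gene results, 858 of 965 values under alternatives kept direction and side of the threshold. Of the rest, 99 lost a call, 8 gained one and 0 reversed. These results were picked for an unadjusted p under 0.05 or a call in the main fit. The count of 0 reversals therefore cannot show how stable direction is in other results. Some ileal vancomycin changes outside this pick did switch sign without vancomycin ileum 11, among them Nectin3 (-0.27 to 0.13). Cldn2, Cldn4, Cldn8 and Nectin2 kept their calls between tissues under every alternative run.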
